A study of Mus musculus with 8 samples.

Results

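The mRNAs of 2 receptors and their 2 ligands, Kit with Kitl and Cxcr4 with Cxcl12, were followed in an RNA-immunoprecipitation (RIP) of the germ cell RNA-binding protein DAZL. In RIP, a protein is captured from a lysate by an antibody on beads, and the RNA bound to it (the IP) is set against the RNA of the cleared lysate (the input). Probes were taken when the scanner files named 1 of these 4 genes for them, or an older name of it. This gave 7 of the 41174 probes that were not controls, 3 for the receptors and 4 for the ligands, and 6 of them were among the 18263 probes bright enough to be tested. Another probe, whose description mentions a Kit ligand product, was left out because the files name its gene as Zfp560.

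The tissue was the gonad of E14.5 mouse embryos of the strain MCH, a stage at which XX germ cells enter meiosis and XY germ cells do not. The groups were XX input, XX IP, XY input and XY IP, with 2 arrays each, and the labels give no transgene, mutation or drug for any group. Lots of 50 gonads were pooled for a lysate, the input was 5% of it, and the RNA labelled for a 1-colour Agilent array was 50 ng for an input and 1 ng for an IP. The arrays used here include no IP with a control antibody, and every value of an IP is relative to input alone. Whole gonads hold germ cells, supporting cells, interstitial cells, vessels and blood, and in such bulk samples fewer cells of a type and less RNA per cell cannot be told apart.

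Both pairs are textbook signals of the fetal germ line. KIT is a receptor tyrosine kinase on the surface of germ cells, and KITL (also called stem cell factor or steel factor) is made by the somatic cells around them. KIT signalling keeps migrating germ cells alive and moving, and mutations of either gene leave mice with few germ cells. CXCR4 is a G protein-coupled receptor on germ cells, and CXCL12 (also called SDF-1) is the chemokine from the somatic tissue that draws them to the gonad. The expression of neither receptor is limited to germ cells, since mast cells carry KIT and endothelial and blood cells carry CXCR4. DAZL itself is made only in germ cells and binds mRNAs in the cytoplasm.

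Kit had 1 probe, A_51_P355906, printed in 10 spots, at mm8 chr5:75937959-75938018 on the plus strand. Cxcr4 had A_52_P585124 at chr1:130416048-130416107 and A_52_P565353 at chr1:130416628-130416687, both on the minus strand. Kitl had A_51_P133936, printed in 10 spots, at chr10:99529535-99529594, and A_52_P572571 at chr10:99506434-99506493, both on the plus strand. Cxcl12 had A_51_P172502 at chr6:117146828-117146887 and A_52_P685021 at chr6:117140075-117140134, both on the plus strand. The files describe the first Cxcl12 probe as transcript variant 3 but list another RefSeq transcript of the gene for it too, and describe the second as variant 1, so the 2 probes may read different transcripts of the gene. For each gene the probe with the highest mean signal is called the main probe, which is the first named here, and the other is given beside it. Positions are those in the files, and exons were not looked up because no annotation of that build was at hand.

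Values are log2 signals minus the array's own 75th percentile, so 0 is the level of a probe brighter than 3 in 4 probes of that array. Between 16712 and 20390 probes were above background on an input array and between 6067 and 9468 on an IP array. The 75th percentile was 77.4 to 173 scanner units for inputs and 6.83 to 13.1 for IPs, while the lowest signal among probes above background was 12.4 to 18.3 scanner units on all 8 arrays. On the relative scale, a probe therefore came above background from -3.59 to -2.34 on the inputs but only from 0.03 to 1.02 on the IPs. A dim probe can for this reason stand higher in an IP than in its input without having been measured there, so each value of the 4 genes is given with the arrays on which it was above background. For the 4205 probes measured on every array, replicates correlated across probes at r = 0.995 and 0.996 for the inputs and 0.964 and 0.963 for the IPs. The XX arrays lay on 1 slide and the XY arrays on another, so each IP was set against its input within a slide, while sex and slide cannot be told apart.

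**Figure D1:**
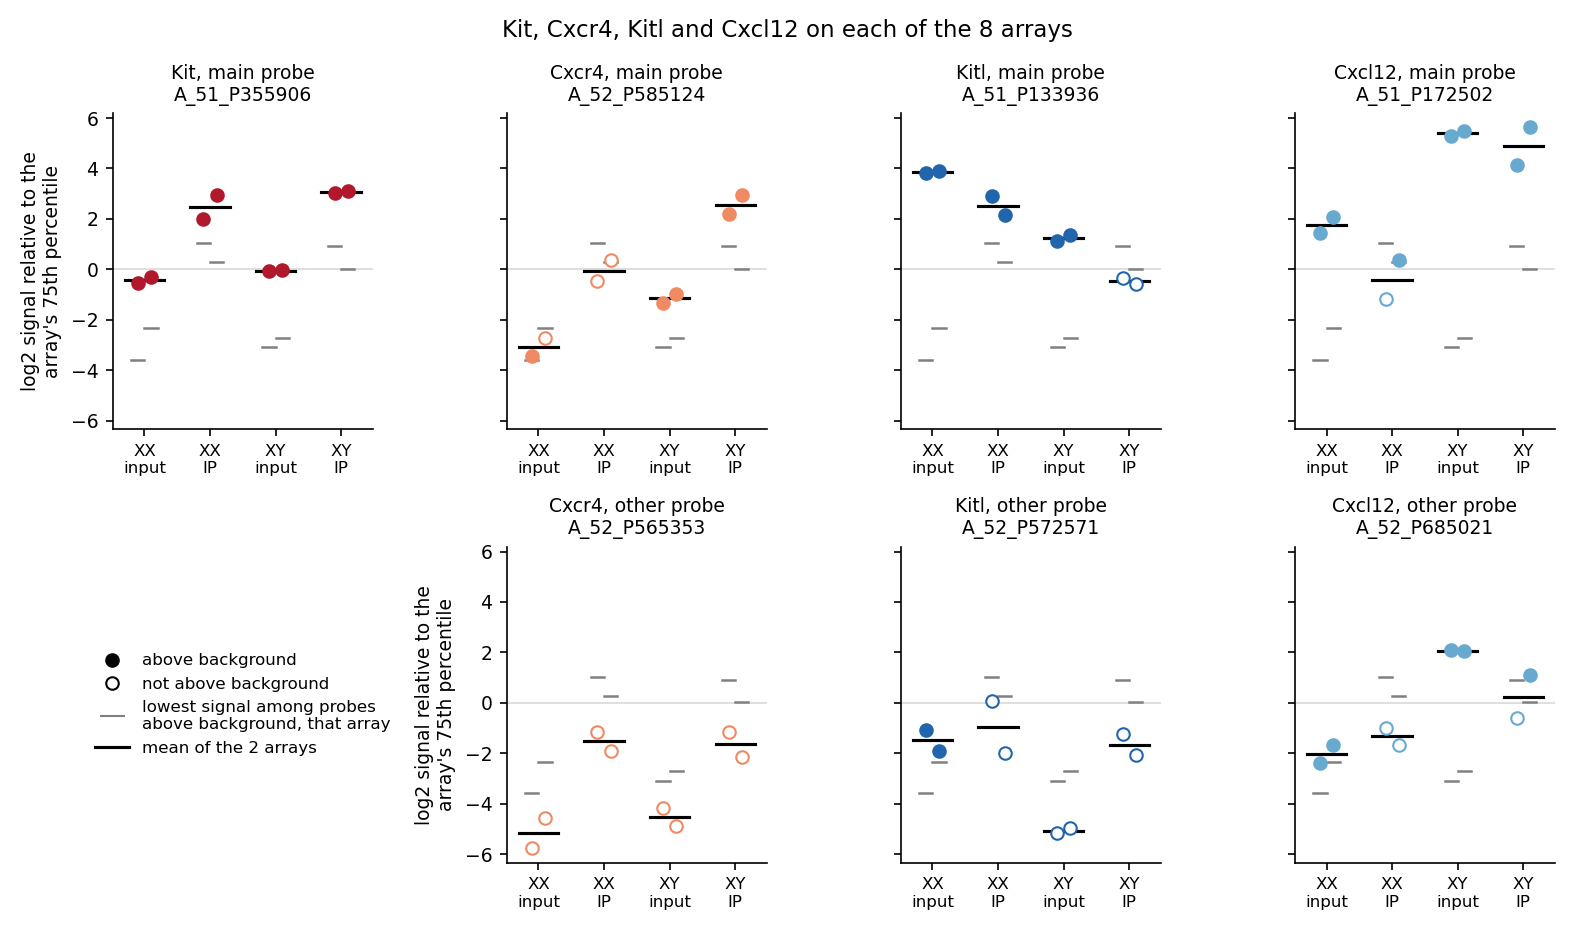
Log2 signal minus the array's own 75th percentile (y axis) for the 7 probes of Kit, Cxcr4, Kitl and Cxcl12 in the 4 groups (x axis), with a point for each array, filled where the probe was above background and open where it was not; black bars are the means of the 2 arrays and grey ticks the lowest signal among probes above background on that array. Kit stood at 2.00 to 3.11 in the IPs and -0.53 to -0.03 in the inputs, while the main probes of Kitl and Cxcl12 had their highest means in an input.

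Kit mRNA stood above its input in the IPs of both sexes, 7.43-fold in XX and 8.67-fold in XY on the scale used here. Its log2 signal was -0.53 and -0.32 in the XX inputs, 2.00 and 2.94 in the XX IPs, -0.08 and -0.03 in the XY inputs, and 3.01 and 3.11 in the XY IPs. Both IPs stood above both inputs in each sex, and the probe was above background on all 8 arrays. In scanner units the IP signals were 36.1 and 96.1 in XX and 55.0 and 114 in XY, each above the lowest measurable signal of its array. The log2 difference was 2.89 in XX (SE 0.42, 95% interval 1.98 to 3.81, adjusted p = 0.00029) and 3.12 in XY (SE 0.42, 95% interval 2.20 to 4.03, adjusted p = 0.00027) in limma over all probes tested. Among all probes tested these differences were at the percentiles 93.7 and 96.7. A probe was called in an IP when the adjusted p was under 0.05 and the change at least 4-fold, and Kit was called in both sexes. The call was lost in both with the 50th percentile as the scale (0.89 in XX and 1.25 in XY) and with the normexp background corrections (1.02 with both in XX, 0.61 and 1.01 in XY). Such calls upward were made for 14.1% of all probes tested in XX and 10.2% in XY, or 8.20% and 6.05% when the IP also had to be above background on both arrays.

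Kit did not differ detectably between the inputs. The XX input minus XY input difference was -0.37 (SE 0.42, 95% interval -1.28 to 0.55, adjusted p = 0.70). The recovery with DAZL differed between the sexes by -0.22 (XX minus XY, SE 0.59, 95% interval -1.52 to 1.07, adjusted p = 0.91). Leaving out 1 array gave -0.69 to 0.24, so its sign was not settled. From high to low, the means were 3.06 ± 0.07 for XY IP, 2.47 ± 0.66 for XX IP, -0.05 ± 0.03 for XY input and -0.42 ± 0.14 for XX input (SD, n = 2). The 10 spots of the probe spread by an SD of 0.07 to 0.19 log2 units within an array, so the gap between the XX IPs was larger than the spread of the spots.

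Cxcr4 mRNA was 13.0-fold higher in the IP than in the input in XY on the same scale, and in XX it could not be measured in the IP. With its main probe the log2 signal was -3.43 and -2.72 in the XX inputs, -0.48 and 0.37 in the XX IPs, -1.32 and -0.96 in the XY inputs, and 2.19 and 2.94 in the XY IPs. All 4 XY arrays were above background, while in XX this held for 1 of 2 inputs and for neither IP. In scanner units the XX IPs gave 6.45 and 16.2 and the XY IPs 31.1 and 101. The XY difference was 3.71 (SE 0.47, 95% interval 2.69 to 4.73, adjusted p = 0.000197), at percentile 98.5 of all probes tested. This call was lost with the 50th percentile (1.84) and with the normexp corrections (0.62 and 1.26). The XX difference was 3.02 (SE 0.47, adjusted p = 0.00042) and passed the same limits, but with both IPs below background no fold is given for it. The second Cxcr4 probe was below background on all 8 arrays, at 2.77 to 6.48 scanner units, and was not tested.

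The main probe of Cxcr4 also gave a lower signal in the XX than in the XY input. It was bright enough to be tested only through the XY groups, so its call between the inputs is not read as a sex difference. The XX input minus XY input difference was -1.93 (SE 0.47, 95% interval -2.95 to -0.91, adjusted p = 0.0175), with the XX input above background on 1 of 2 arrays. With the dim array raised to its lowest signal above background, the level in XX was 3.34-fold lower. Calls between the inputs needed an adjusted p under 0.05 and no minimum fold, and 5.87% of all probes tested were called higher in XX and 6.10% lower. The call was lost without XX input replicate 1 (-1.58, adjusted p = 0.213), without XY input replicate 1 (-2.11, adjusted p = 0.0695) or without XY input replicate 2 (-1.75, adjusted p = 0.161), and under 6 other settings, at -0.59 to -1.93. The recovery of Cxcr4 with DAZL differed between the sexes by -0.69 (SE 0.66, 95% interval -2.13 to 0.76, adjusted p = 0.69), a value that rests on the unmeasured XX IPs. From high to low, its means were 2.56 ± 0.53 for XY IP, -0.05 ± 0.60 for XX IP, -1.14 ± 0.25 for XY input and -3.07 ± 0.50 for XX input (SD, n = 2).

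Kitl mRNA, in contrast, was lower in the IP than in the input of each sex. With its main probe the log2 signal was 3.82 and 3.91 in the XX inputs, 2.91 and 2.14 in the XX IPs, 1.14 and 1.37 in the XY inputs, and -0.33 and -0.59 in the XY IPs. Inputs and IPs did not overlap in either sex, and the probe was above background on all arrays but the XY IPs. The XX difference was -1.34 (SE 0.41, 95% interval -2.23 to -0.45, adjusted p = 0.018), a 2.53-fold lower level in the IP. The XY difference was -1.72 (SE 0.41, adjusted p = 0.0066), and against the lowest measurable signal of the XY IPs Kitl was at least 1.73-fold lower there. Neither reached the 4-fold limit, so neither was called, beside 9.91% of all probes tested called lower in XX and 7.68% in XY. Other settings did call Kitl lower. These were the 50th percentile as the scale (-3.35 in XX and -3.58 in XY), in XX also either normexp background correction (-2.55 with both), and in XY also the 75th percentile of probes above background on all 8 arrays (-2.04). With the 50th percentile, 8643 of the 18263 probes were called lower in XX and 8379 in XY, with medians of -1.92 and -1.90. Relative to the median of all probes, Kitl stood at -1.43 and -1.68 with either percentile. The XY difference was smaller with the normexp corrections, at -0.59 (adjusted p = 0.312) and -0.98 (adjusted p = 0.0023). Without 1 of the 4 arrays of the sex, the XX difference was -1.73 to -0.95 (adjusted p 0.0088 to 0.121) and the XY difference -1.84 to -1.59 (adjusted p 0.0112 to 0.0787). The sexes differed by 0.37 in this (SE 0.58, 95% interval -0.89 to 1.64, adjusted p = 0.82). Leaving out 1 array gave -0.01 to 0.76, and the value was negative with both normexp corrections. The second probe gave -2.90 (adjusted p = 0.097), on IPs that were not above background.

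The level of Kitl was 6.10-fold higher in the XX than in the XY input. The log2 difference was 2.61 (SE 0.41, 95% interval 1.72 to 3.50, adjusted p = 0.0013), at percentile 98.1 of all probes tested. From high to low, the means of the main probe were 3.86 ± 0.06 for XX input, 2.52 ± 0.55 for XX IP, 1.26 ± 0.17 for XY input and -0.46 ± 0.18 for XY IP (SD, n = 2). The second Kitl probe gave -1.07 and -1.89 in the XX inputs and was below background in the XY inputs and in all 4 IPs. By that probe the signal was at least 2.67-fold higher in the XX input (log2 difference 3.60). The probe was bright enough to be tested only through the XX inputs, so no test between the inputs is read from it. Its IP minus input differences, 0.51 in XX and 3.42 in XY, compare IP signals of 2.90 to 9.35 scanner units that were not above background, so no fold is given, although the XY value passed the limits (adjusted p = 0.0014).

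Cxcl12 mRNA was lower in the XX IP than in its input, while in XY its difference did not pass the test as reported and was called lower under other settings. With its main probe the log2 signal was 1.44 and 2.09 in the XX inputs, -1.19 and 0.38 in the XX IPs, 5.31 and 5.48 in the XY inputs, and 4.14 and 5.63 in the XY IPs. The XX arrays did not overlap, while 1 XY IP stood above both XY inputs and the other below them. The XX difference was -2.17 (SE 0.59, 95% interval -3.47 to -0.87, adjusted p = 0.0105), and Cxcl12 was the only member called lower in an IP. That size rests on XX IP replicate 1, where the probe was not above background. With that array raised to its lowest signal above background, Cxcl12 was 2.09-fold lower, short of the 4-fold limit. The XY difference was -0.51 (SE 0.59, 95% interval -1.80 to 0.79, adjusted p = 0.52), with all 4 arrays above background. It was -2.33 and -2.58 with the normexp corrections (adjusted p = 0.0447 and 0.0047, both called) and -2.37 with the 50th percentile (adjusted p = 0.0542). Its sign depended on 1 array, at 0.24 without XY IP replicate 1 (adjusted p = 0.79) and -1.25 without XY IP replicate 2 (adjusted p = 0.122). Without XX input replicate 2 the XX difference was -1.84 (adjusted p = 0.0644), without XX IP replicate 1 it was -1.39 (adjusted p = 0.103), neither of them called, and without XX IP replicate 2 it was -2.95 (adjusted p = 0.0064). The call was also lost with quantile normalization (-3.21, adjusted p = 0.0675), with either normexp correction (-1.43) and without moderated variances (adjusted p = 0.110).

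The second Cxcl12 probe was too dim in XX to show a fall in the IP. It gave -2.37 and -1.69 in the XX inputs and -0.98 and -1.68 in the XX IPs, which were not above background, and a difference of 0.70 (adjusted p = 0.31) that was not measured. In XY it gave 2.11 and 2.04 in the inputs and -0.62 and 1.10 in the IPs, 1 of them above background, and a difference of -1.83 (SE 0.55, adjusted p = 0.020) short of 4-fold. Between the sexes the recovery of Cxcl12 differed by -1.66 with the main probe (SE 0.84, 95% interval -3.50 to 0.17, adjusted p = 0.37). Leaving out 1 array gave -2.44 to -0.88, and the sign turned with both normexp corrections. The value of the other probe, 2.53 (SE 0.78, adjusted p = 0.107), rests on the XX IPs below background, so its sign was not measured.

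In the inputs both probes placed Cxcl12 higher in XY. The main probe was 12.4-fold higher in the XY input (XX minus XY log2 difference -3.63, SE 0.59, adjusted p = 0.0017), and the second was 17.2-fold higher (-4.11, SE 0.55, adjusted p = 0.00044). By their main probes the 2 ligands thus had opposite sex differences in the starting tissue, Kitl higher in XX and Cxcl12 higher in XY. The second Kitl probe is not counted here, since it was tested only through the XX inputs. The call of the main probe was lost with the 50th percentile (-3.61, adjusted p = 0.0689), quantile normalization (-3.87, adjusted p = 0.124) and without moderated variances (adjusted p = 0.108). From high to low, its means were 5.39 ± 0.12 for XY input, 4.89 ± 1.05 for XY IP, 1.76 ± 0.46 for XX input and -0.41 ± 1.11 for XX IP (SD, n = 2), and the first 2 did not differ beyond their spread.

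**Figure D2:**
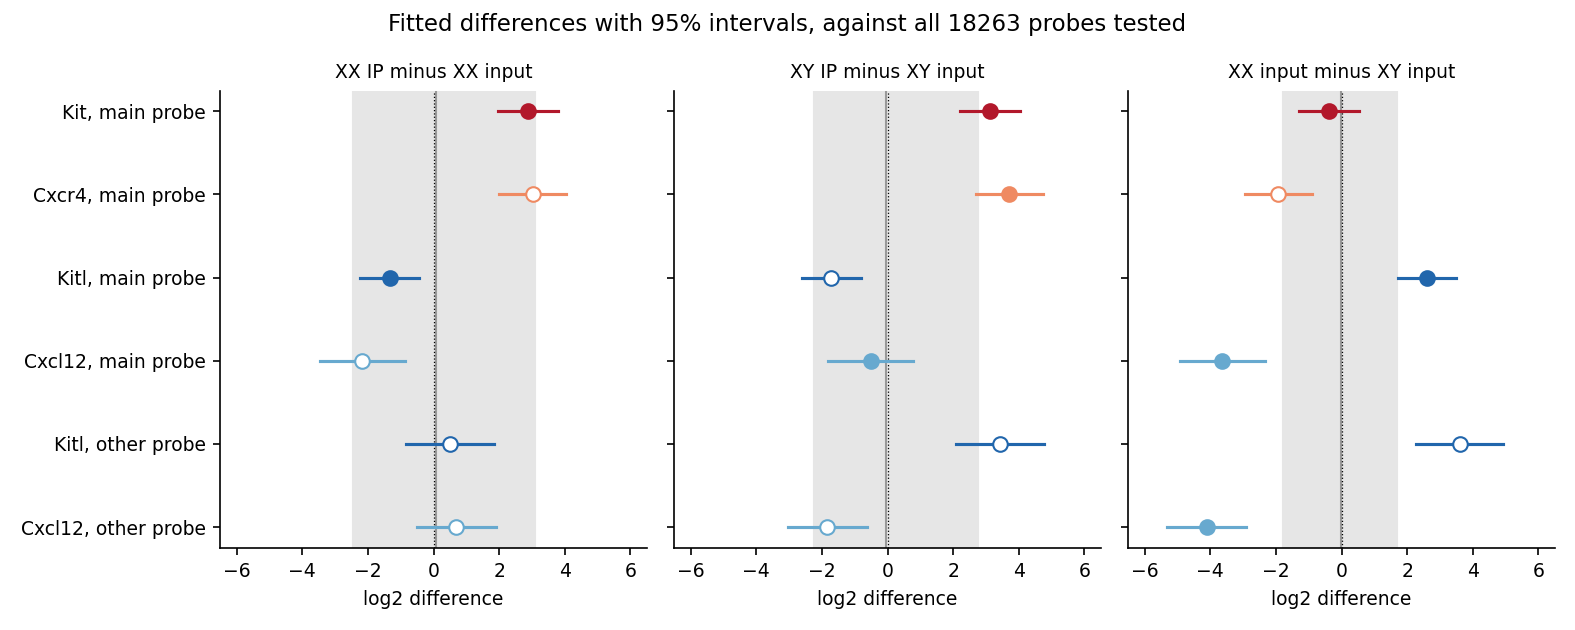
Fitted log2 differences (x axis) with 95% intervals for the 6 probes tested (y axis), for IP minus input in XX and XY and for XX input minus XY input; filled points had both sides above background on every array, open points did not, the grey band is the range from the 5th to the 95th percentile of all 18263 probes tested, and the grey line is their median. Kit and Cxcr4 lie to the right in both IP panels, the main probes of Kitl and Cxcl12 to the left, and in the input panel Kitl and Cxcl12 lie on opposite sides.

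In all, 3 of the 4 genes passed the limits in XX (Kit and Cxcr4 higher, Cxcl12 lower), but of these only Kit was above background in both IPs, Cxcr4 in neither and Cxcl12 in 1. In XY 2 were called (Kit and Cxcr4 higher, both measured in both IPs), and between the inputs 3 (Kitl higher in XX, Cxcr4 and Cxcl12 higher in XY). Of these 3, Cxcr4 was tested only through the XY groups. Of all probes tested, 14.1% were called higher and 9.91% lower in XX, 10.2% and 7.68% in XY, and 5.87% and 6.10% between the inputs. For the difference between the sexes in IP minus input, 0 of the 4 were called in limma at an adjusted p under 0.05, and 0 of their main probes had an unadjusted p under 0.05. Among all probes tested, 2.18% were called with a higher IP minus input difference in XX and 1.12% with a higher one in XY, which need not mean enrichment in that sex. The 4 differences had intervals 2.53 to 3.67 log2 units wide, so differences between the sexes of several fold would not have been seen.

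The receptors and ligands were also set against each other within each array, where the scaling of the array drops out. Levels of different probes are not comparable, so only the change of this difference from input to IP is read. Kit minus Kitl was -4.35 and -4.23 in the XX inputs and -0.91 and 0.80 in the XX IPs, a rise of 4.23 log2 units (SD 0.09 in the inputs and 1.21 in the IPs, n = 2 each). In XY it was -1.22 and -1.40 in the inputs and 3.35 and 3.70 in the IPs, a rise of 4.83 (SD 0.13 and 0.25), but Kitl was below background in both IPs, and with Kitl raised to the lowest signal above background the rise was at least 3.90. Cxcr4 minus Cxcl12 was -4.87 and -4.81 in the XX inputs and 0.71 and -0.0043 in the XX IPs, a rise of 5.19 (SD 0.04 and 0.51), with Cxcr4 below background in both IPs and Cxcl12 in replicate 1, so that 0.71 is a difference of unmeasured signals and 5.19 is not a measured size. In XY it was -6.63 and -6.44 in the inputs and -1.96 and -2.69 in the IPs, a rise of 4.21 (SD 0.13 and 0.52), with all arrays above background for both genes. Both IPs stood above both inputs in the 2 comparisons measured on all arrays and for Kit minus Kitl in XY. No model was fitted to these differences, and an exact permutation test of 2 arrays against 2 cannot give a p below 0.33. With the normexp corrections the rises were smaller, at 3.57 with both for Kit minus Kitl in XX, 1.19 and 1.99 for Kit minus Kitl in XY, 2.64 with both for Cxcr4 minus Cxcl12 in XX, and 2.96 with the first for Cxcr4 minus Cxcl12 in XY.

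**Figure D3:**
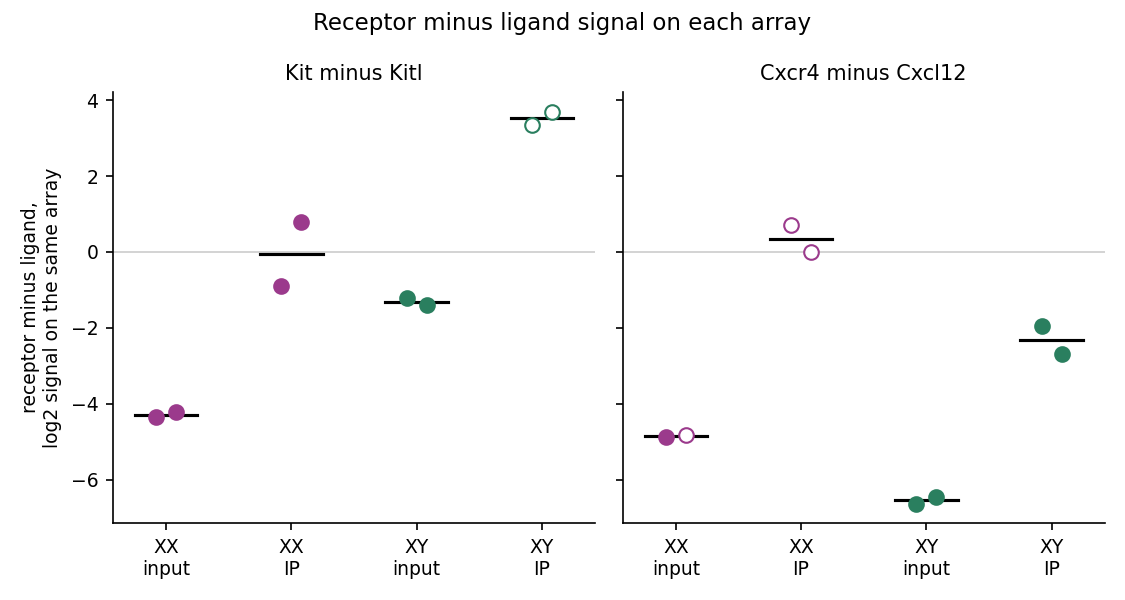
Receptor minus ligand log2 signal on the same array (y axis) for Kit minus Kitl and Cxcr4 minus Cxcl12, by group (x axis), with a point for each array, filled where both genes were above background, and a bar for the mean of the 2 arrays. All 4 arrays had both genes above background for Kit minus Kitl in XX and for Cxcr4 minus Cxcl12 in XY, where both IPs stood above both inputs, with rises of 4.23 and 4.21.

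Marker genes of the cell types in the gonad were read from the same arrays, and their part in these results was not tested. Of 15 germ cell markers tested, 7 were called higher in XX, 5 of them with both IPs above background, and 5 in XY, all with both IPs above background, when IP was set against input. The shares of all probes tested called higher were 14.1% for XX and 10.2% for XY, and 8.20% and 6.05% counting only those with both IPs above background. Of the markers 0 were called lower in either sex, beside 9.91% of all probes in XX and 7.68% in XY, so nothing is read from this 0 of 15. Their median differences were 1.95 and 1.78 beside 0.09 and -0.03 for all probes. Their single differences ran from -1.78 to 2.69 in XX and from -1.32 to 2.96 in XY, beside 2.89 and 3.12 for Kit, and these gaps were not tested. Dazl itself had differences of 2.69 and 2.06, and Ddx4, the germ cell RNA helicase, 1.91 and 1.78. The summed germ cell marker signal, in multiples of the array's 75th percentile, was 196 to 212 in the XX inputs, 280 to 343 in the XY inputs, 656 to 700 in the XX IPs and 763 to 1166 in the XY IPs. Between the inputs 8 of the 15 were called lower in XX and 2 higher, against 6.10% and 5.87% of all probes tested. Dazl (1.22, adjusted p = 0.067) and Ddx4 (-0.19, adjusted p = 0.85) were not called there, so the markers had no common direction between the inputs.

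The somatic lists stood beside the ligands. The 6 granulosa cell markers tested summed to 99.3 to 99.9 in the XX inputs and 13.7 to 14.7 in the XY inputs, and 4 of them were called higher in XX, as Kitl was. Foxl2, the granulosa cell transcription factor, was not above background on both arrays of any group and was not tested. The 10 Sertoli cell markers summed to 14.9 to 15.8 in the XX inputs and 244 to 274 in the XY inputs, and the 13 interstitial and Leydig cell markers to 146 to 199 and 322 to 344, with 8 and 6 of them called higher in XY, as Cxcl12 was. Of all probes tested 5.87% were called higher in XX and 6.10% higher in XY. Amh and Dhh, made by Sertoli cells, were below background in both XX inputs. Markers above background in a single sex entered the test through that sex, so their calls between the inputs were set in part by that choice. In the IPs the lists summed to 15.4 to 23.5 for granulosa markers in XX, 60.6 to 121 for Sertoli markers in XY, and 36.9 to 77.4 in XX and 70.8 to 125 in XY for interstitial markers, below their inputs.

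Cells other than germ cells that can carry the receptors were represented by 2 lists. The 9 endothelial markers tested summed to 23.7 to 30.4 in the XX inputs and 24.5 to 29.7 in the XY inputs, 0 of them were called between the inputs, and in the IPs 5 were called lower in XX and 1 in XY, with 0 called higher. The shares of all probes called lower were 9.91% in XX and 7.68% in XY, and 1 of 9 is near the latter. Called higher were 14.1% in XX and 10.2% in XY, and between the inputs 5.87% were higher in XX and 6.10% lower. Nothing is read from the counts of 0 of 9 beside these shares. The 11 blood and macrophage markers, led by globins, summed to 655 to 974 in the XX inputs and 957 to 1125 in the XY inputs, and to 183 to 430 in the XX IPs and 462 to 1460 in the XY IPs, the last range reaching above the inputs. In the IPs 1 of them was called lower in each sex, and in XY 1 was called higher, Cpa3, which was not above background there. These counts of 1 of 11 are near the shares of all probes, 9.91% and 7.68% lower and 10.2% higher in XY. The mast cell protease Cpa3 was above background in the XX inputs only. It was bright enough to be tested only through that group, so no difference between the inputs is read from it.

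Genes that act downstream of KIT were called in both directions in the IPs. Of 37 listed genes 33 were tested, and in XX 5 were called higher and 3 lower, in XY 4 higher and 3 lower, with medians of 0.03 and 0.12. Among all probes tested 14.1% were called higher and 9.91% lower in XX, and 10.2% and 7.68% in XY, so nothing particular to the list is read from its counts. Among genes measured on every XX array, the largest rises in XX were those of Socs6 (3.96, SE 0.43, adjusted p = 8.9e-05), an inhibitor of KIT signalling, Foxo1 (3.29, SE 0.43, adjusted p = 0.00019), a transcription factor held out of the nucleus by AKT, and Pik3cb (3.03, SE 0.46, adjusted p = 0.00038), a catalytic subunit of PI3 kinase. In XY they were those of Stat5a (3.73, SE 0.45, adjusted p = 0.00016), a transcription factor activated by cytokine receptors, Nras (3.30, SE 0.44, adjusted p = 0.00027), a RAS GTPase, and Foxo1 (3.02, SE 0.43, adjusted p = 0.00039). The genes called lower included Mapk3, the kinase ERK1, in both sexes (-2.57 and -2.40), but each of those was below background on at least 1 array of that sex. Between the inputs 2 genes were called higher in XX and 1 lower, beside 5.87% and 6.10% of all probes, the latter being the leukocyte PI3 kinase subunit gene Pik3cd (-3.15, adjusted p = 0.00065).

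Genes around CXCR4 were likewise called in both directions. Of 28 listed genes 24 were tested, and in XX 1 was called higher and 2 lower, in XY 1 higher and 3 lower, with medians of 0.20 and -0.11, to be set against the same shares of all probes. The 1 called higher in XX was the Jak3 probe, which was not above background there. Gnb1, a G protein beta subunit, rose in the XY IP (2.23, SE 0.45, adjusted p = 0.0027). Gnai2 and Gnb2, which encode further G protein subunits, were called lower in both sexes, at -2.72 and -2.47 for Gnai2 and -2.17 and -2.51 for Gnb2, with 0 of 2 XX IPs and 1 of 2 XY IPs above background for each. Ackr3, the scavenger receptor that takes up CXCL12, was higher in the XY input as its ligand was (-2.29, SE 0.41, adjusted p = 0.0029), and Rgs2, which switches off G proteins, was higher in the XX input (1.58, SE 0.44, adjusted p = 0.038). The probe for the kinase gene Jak3 fell in the XY IP (-3.61, SE 0.51, adjusted p = 0.00035), but the files tie it to Jak3 and also to Insl3, the Leydig cell hormone gene that overlaps it, so the gene it reads is not settled.

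Related pairs of the same families were mostly dim. Of 17 genes, among them Pdgfra, Pdgfrb and Csf1r of the KIT receptor family and several chemokines, 8 were tested. In XX 1 was called higher, without being above background there, and 3 lower, and in XY 0 higher and 2 lower, against 14.1% and 9.91% of all probes tested in XX and 10.2% and 7.68% in XY. The PDGF receptor genes Pdgfra and Pdgfrb, which mark interstitial and perivascular cells, were lower in the IPs. Pdgfra was above background in neither XX IP, at least 3.05-fold lower there, and in both XY IPs, with a difference of -1.36 that was not 4-fold. Pdgfrb, with 1 of 2 IPs above background in each sex, had differences of -2.93 and -2.11. Csf1r, the macrophage receptor, was below background in all 4 IPs, with differences of 0.31 in XX and -0.38 in XY that did not pass the test (adjusted p = 0.59 and 0.54).

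Among 29 other genes of germ cell migration and survival 23 were tested, and in XX 4 were called higher and 2 lower, in XY 2 higher and 1 lower, with medians of 0.18 and -0.14 beside 0.09 and -0.03 for all probes. The shares of all probes called were the same 14.1% and 9.91% in XX and 10.2% and 7.68% in XY, and nothing particular to the list is read from its counts. None of the 4 called higher in XX was above background in its IPs. Cdh1, the cell adhesion protein E-cadherin, rose in the XY IP (2.41, SE 0.52, adjusted p = 0.0037), and Ifitm1, a membrane protein, fell in the XX IP (-2.70, SE 0.49, adjusted p = 0.0011). In the inputs Dnd1, an RNA-binding protein that germ cells need to survive, was higher in XY (-4.33, SE 0.42, adjusted p = 4.6e-05). So was Cdh1 (-2.90, SE 0.52, adjusted p = 0.0028), while the FGF receptor gene Fgfr2 was higher in XX (1.69, SE 0.45, adjusted p = 0.028).

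**Figure D4:**
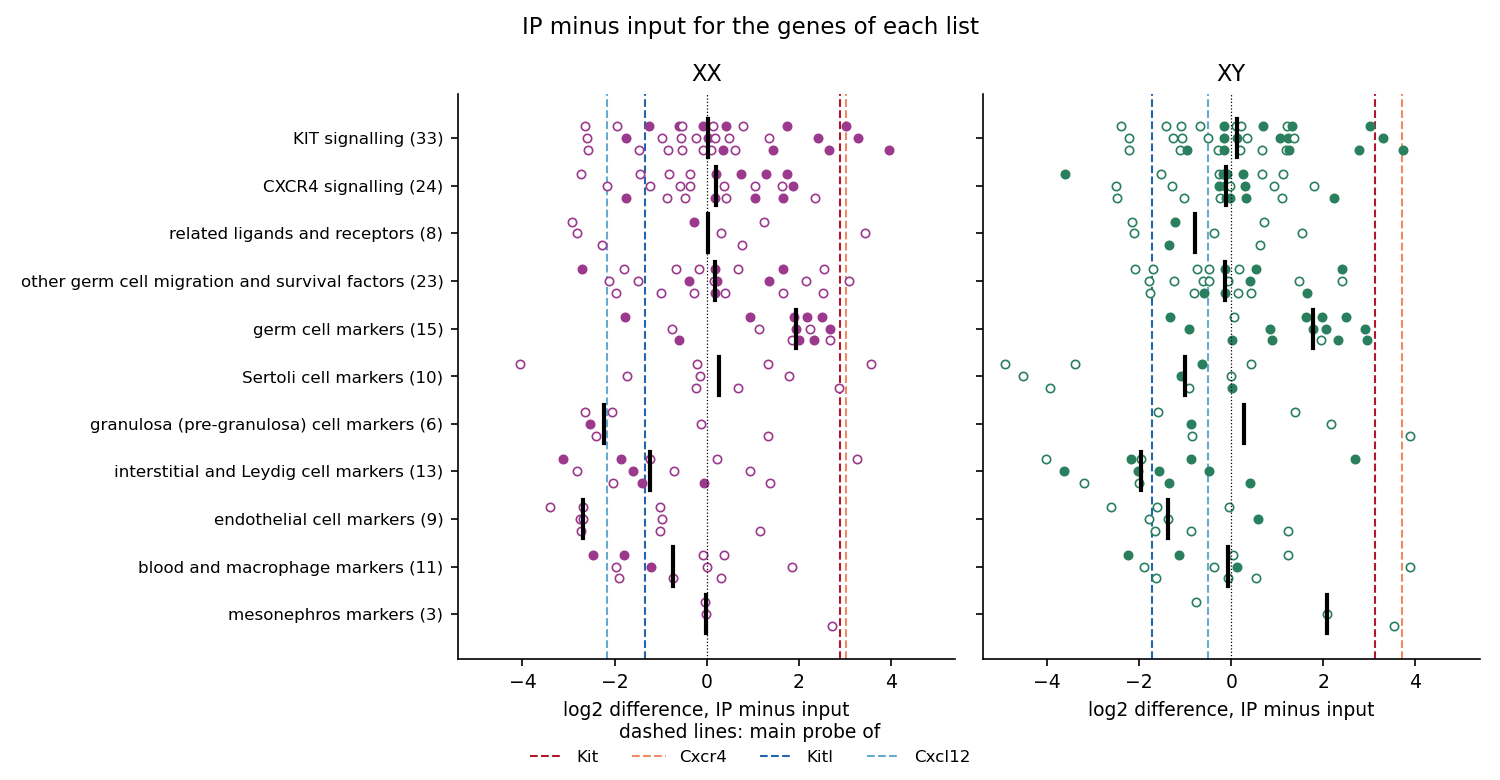
Log2 difference of IP minus input (x axis) in XX and XY for the genes tested in each list (y axis, number tested in brackets), with a point for each gene, filled where it was above background on both IP arrays, a bar for the median of the list, and dashed lines at the main probes of Kit, Cxcr4, Kitl and Cxcl12. The germ cell markers centre at 1.95 and 1.78, and the lists of KIT and CXCR4 signalling near 0. The lines of Cxcr4 in XX and Kitl in XY rest on IPs not above background.

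The genes whose log2 signals followed each member most closely over the 8 arrays are given as a description, in which arrays of a group are not independent. Among probes above background wherever the member was, those most like Kit, which was above background on all 8 arrays, were Srsf1, Ttc33 and Zcchc10 (r = 0.997 each, of 3944 probes). For the other members r includes signals that were not above background, 3 of 8 for Cxcr4, 2 for Kitl and 1 for Cxcl12, so no order of likeness is read from it. The genes at the top were Fancd2, Slc16a6 and Robo1 for Cxcr4 (of 5094 probes), Kmt2c, Ofd1 and Bub1 for Kitl (of 5159), and Dedd2, Enho and Traip for Cxcl12 (of 4742). The 8 arrays form 4 groups, so the number of distinct patterns is small.

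How far Kit and Cxcr4 stood above input depended on how the arrays were brought to 1 scale. With the 50th percentile as the scale, Kit was at 0.89 in XX and 1.25 in XY and Cxcr4 at 1.01 and 1.84, none of them called, but the median of all probes was then -1.92 and -1.90. Relative to that median, Kit stood at 2.81 and 3.15 and Cxcr4 at 2.93 and 3.74, values that a change of percentile cannot move because it shifts all probes of an array alike. With no filter on dim probes the median of all probes was itself 2.54 in XX and 2.38 in XY, and relative to it Kit stood at 0.35 and 0.73 and Cxcr4 at 0.48 and 1.32. Of all probes in XX, 2566 were called higher and 1810 lower as reported, 1672 and 2859 with the 75th percentile of probes above background on all arrays, 1479 and 3286 with quantile normalization, and 189 and 8643 with the 50th percentile. In XY these were 1861 and 1403, 1256 and 2184, 1241 and 2478, and 219 and 8379. Normexp background correction, which adds an offset that weighs on the dim IPs, left Kit at 1.02 and 0.61 and Cxcr4 at 1.21 and 0.62, again not called. The XX values of Cxcr4 under all these settings rest on IPs not above background.

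**Figure D5:**
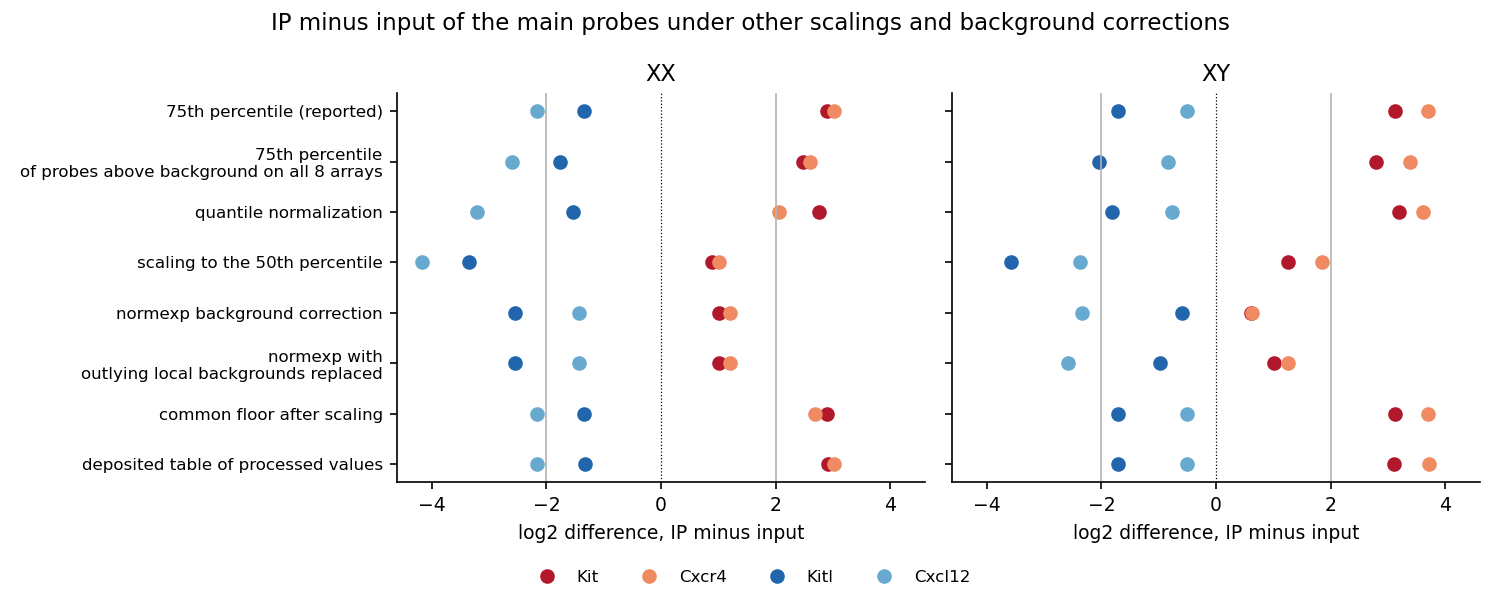
Log2 difference of IP minus input (x axis) of the main probes of Kit, Cxcr4, Kitl and Cxcl12 in XX and XY under 8 ways of scaling or background correction (y axis), with grey lines at the 4-fold limit and a dotted line at 0. The receptors lie above 0 and the ligands below 0 under each of them, while the distance from 0 varies, for Kit from 0.61 to 3.20. The points of Cxcr4 in XX and Kitl in XY rest on IPs not above background.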

How the data were processed

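RNA from DAZL IPs and inputs of E14.5 XX and XY gonads was measured on 8 1-colour Agilent whole mouse genome arrays, grouped by the labels. The deposited scanner files hold each spot's mean and local background intensities and a processed, background-subtracted intensity made with Feature Extraction (9.5.3.1 in the headers, 9.5 in the submitters' processing notes). The deposited table holds log2 values that the authors floored at 1 and scaled to the 75th percentile, and served as an alternative.

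Outlying spots were dropped, signals under 1 set to 1, spots of a probe averaged, and log2 signals scaled to the 75th percentile. Of 41174 probes 73 had no usable spot on some array, and 18263 were bright enough to test (well above background on each array of 1 or more groups). Array numbers limit the precision. Probes were named through accessions or symbols in RefSeq's gene table for GRCm38.p6. limma 3.58.1 (R 4.3.3) was fitted to all 8 arrays with a mean per group and moderated variances (4 residual and 7.82 prior degrees of freedom), two-sided, with Benjamini-Hochberg adjustment over 18263 probes. The labels do not say whether replicates came from separate lots, so p-values measure the spread between these arrays. "At least" folds raise the dimmer side, per array, to the lowest signal above background where it lay under that. The procedure was tested on simulated data.

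The members and lists were chosen with earlier results of these data known. Named were all members and, per list, the 3 largest calls in each direction with every array of the contrast above background, and the 3 genes most like each member. Counts of 5 or fewer outside this rule, and cell type markers, were named after their values were seen.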

Additional observations from a re-analysis of the deposited data

Results flagged for a closer look

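None of the 4 members was called for a difference between the sexes in IP minus input by its main probe as reported, and Kitl was with normexp with outlying local backgrounds replaced (-1.57, adjusted p = 0.031). In the pathway lists, with 33, 24, 8 and 23 genes tested, 3 genes passed the test of that difference (XX minus XY, adjusted p under 0.05), all upward, beside 2.18% of all probes called upward and 1.12% downward. Nanos3 and the Jak3 probe were bright enough to be tested only through XY groups, and their XX IPs were not above background. No sex difference is read from these 2 or from the count. Socs6 differed by 3.30 (adjusted p = 0.0169), with all XX arrays and 1 of 2 XY IPs above background. Nanos3 differed by 3.85 (adjusted p = 0.0114), but it was above background in the XY inputs only. The Jak3 probe, which the files also tie to Insl3, differed by 5.97 (adjusted p = 0.0021), with no XX array above background and at least 486-fold more signal in the XY than in the XX inputs. Their causes were not tested.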

How the results depend on the processing

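Kit stayed above input in both sexes under each of its 20 alternatives, with a range of 0.89 to 3.36 in XX and 0.61 to 3.20 in XY, and lost its call in 3 of them in each sex (the 50th percentile and both normexp corrections). Cxcr4 in XY stayed above input under each of its 19, at 0.62 to 4.08, and lost its call in the same 3. In XX its values ran from 1.01 to 3.44, but both IPs were below background, so no direction is read from them. Kitl in the inputs kept its direction and call in each of 20 (2.36 to 3.60). The highest value is that of the second probe, which was tested only through the XX inputs. Cxcr4 in the inputs lost its call in 9 and Cxcl12 in 3, with no change of direction. The main probe of Cxcr4 was tested only through the XY groups, so its direction in the inputs is not read from this. The other probe turned Cxcl12 in XX to 0.70 and Kitl to 0.51 in XX and 3.42 in XY. It turned the sex differences to -2.90 for Kitl and 2.53 for Cxcl12. All of these rest on IP signals that were not above background on both arrays. Normexp with outlying local backgrounds replaced turned the sex difference of Kitl to -1.57 (adjusted p = 0.031). The causes were not tested.

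Of the 4 members, 3 were called in XX as reported, 2 with the 50th percentile (Kitl and Cxcl12) and 1 with either normexp correction (Kitl). In XY 2 were called as reported, 1 with the 50th percentile (Kitl), 1 with either normexp correction (Cxcl12) and 3 with the 75th percentile of probes above background on all 8 arrays (Kit, Cxcr4 and Kitl). Between the sexes 0 were called, and 1 with normexp with outlying backgrounds replaced. In the inputs 3 were called, and 1 with the 50th percentile, with quantile normalization or without moderated variances. With only probes above background on all 8 arrays, Kit alone could be tested, and 1 member was called in XX, 1 in XY and 0 in the inputs. The rise of Kit minus Kitl in XY, with Kitl not measured in the IPs, was 4.83, and 1.19 or 1.99 with the normexp corrections. That of Cxcr4 minus Cxcl12 in XX, not a measured size, was 5.19, and 2.64 with both, and in XY it was 4.21, and 2.96 with the first. Leaving out 1 array gave 3.38 to 5.09 for Kit minus Kitl in XX and 2 to 3 members called in XX or in the inputs.

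The replicate numbers were not taken as pairs, since same-numbered IP and input deviated together at r = 0.07 in XX and 0.09 in XY. With the replicate block the counts of members called stayed at 3 in XX and 2 in XY, and Kit at 2.89 and 3.12. Over all probes the calls ranged from 69 to 23327 higher and 373 to 8643 lower in XX, from 21 to 22372 and 231 to 8379 in XY, from 0 to 986 and 0 to 570 for the sex difference, and from 129 to 4133 and 72 to 3931 in the inputs, against the 2566 and 1810, 1861 and 1403, 398 and 204, and 1072 and 1114 reported. The signal of the IPs limits what could be measured for Cxcr4 in XX and Kitl in XY.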
